A study of Mus musculus with 6 samples.

Results

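The genes examined were 41 mouse genes whose human counterparts are recurrently mutated in myelodysplastic syndromes (MDS), out of 21896 protein-coding genes. They were chosen by name, as drivers of the disease, and each was placed by its RefSeq span on GRCm38. Each was searched for ChIP-Seq peaks of FLAG-tagged Onecut3. All 41 symbols were found, in 7 classes: 7 splicing genes, 4 genes of DNA methylation, 10 other chromatin genes, 4 cohesin genes, 5 transcription factors, 8 signalling genes and 3 others.

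The cells were primary mouse embryonic fibroblasts (MEFs) of the C57BL/6 strain, made from p53 KO embryos, so every library lacks p53. They are fibroblasts and not blood cells. Onecut3 was expressed from the doxycycline-inducible retroviral Retro-X Tet-One system. The 3 ONECUT3-OE replicates were treated with doxycycline at 100 ng/mL and precipitated with anti-FLAG M2 antibody, and only these have the peak lists used here. A FLAG library of control cells kept off doxycycline, and the input and normal mouse IgG libraries of ONECUT3-OE cells (1 of each), were not analysed here. Signal that the antibody gives without Onecut3 was therefore not subtracted. The labels give neither the time in doxycycline nor whether the replicates came from separate cultures. The lists hold 31600, 12856 and 24822 peaks in replicates 1, 2 and 3. They give no read numbers, so the depth is unknown. Merging peaks with 1 bp or more in common gave 50844 regions. Those with a peak of every replicate, 5114 in number, are called shared. Peak lists do not measure expression, so neither the fibroblast identity of the cells nor the expression of the 41 genes was checked.

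MDS are clonal disorders of blood stem cells, in which the marrow makes misshapen cells and too few of them leave it. The mutated genes fall into a few processes: recognition of splice sites, methylation of DNA, modification of histones by Polycomb and related complexes, the cohesin ring that holds and folds chromosomes, the transcription factors of blood stem and myeloid cells, and growth factor signalling through receptor kinases, JAK and RAS. Onecut proteins bind DNA through a cut domain and a homeodomain, and their sites share the core ATTGAT or ATCGAT.

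Of the 41 genes, 10 (24.4%) had a shared region inside the span, against 9.49% of the 21855 other protein-coding genes. Either gene end had a shared region within 3 kb at 6 genes (14.6%), against 5.32% of the others. Inside the gene or up to 100 kb outside it, 22 genes (53.7%) had one, against 40.7%. No test was made of these shares, since the genes were chosen with earlier results of the same data known. The 10 genes with a shared region inside were Etv6, Runx1, Wt1, Gata2, Sf3b1, Luc7l2, Ddx41, Kdm6a, Smc3 and Setbp1. Csf3r had one 1.77 kb outside its span.

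**Figure D1:**
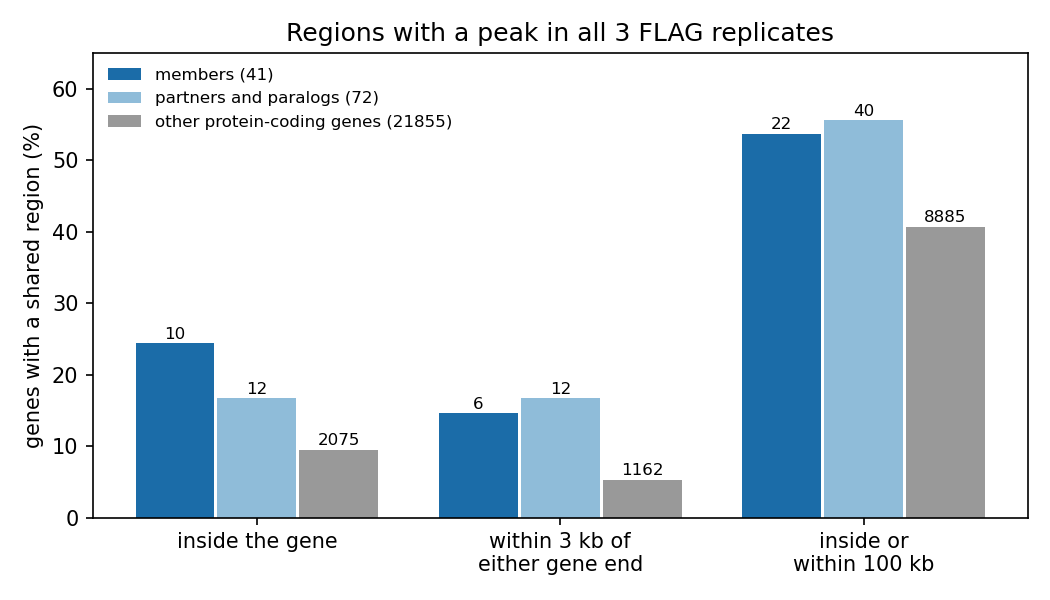
Percent of genes (y axis) with a region shared by all 3 FLAG replicates in each of 3 windows (x axis), for the 41 members, their 72 partners and paralogs, and the 21855 other protein-coding genes, which include the partners; numbers on the bars are gene counts. The member bars stand at 24.4%, 14.6% and 53.7%, above the bars of all other genes at 9.49%, 5.32% and 40.7%.

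The same order was seen in each list alone. A peak of replicate 1 lay inside 24 of 41 members (58.5%), against 29.6% of the other genes. For replicate 2 it was 15 members (36.6%) against 17.2%, and for replicate 3 it was 19 members (46.3%) against 25.7%. Over the lists this was 47.2% ± 11.0 of members and 24.2% ± 6.31 of other genes (SD, n = 3). These are not 3 separate comparisons. The 10 members with a shared region inside have a peak there in every list by definition, as do the other genes with one. Within 3 kb of a gene end, 16, 9 and 12 members had a peak in replicates 1, 2 and 3, against 18.4%, 10.2% and 15.8% of other genes. Within 100 kb each of the 41 members had a peak in at least 1 list. By list these were 39, 35 and 39 members, against 86.0%, 64.5% and 80.5% of other genes. Of the 41 members, 27 had a peak of some list inside the gene, and in 15 of these every region inside came from 1 list only.

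The members are long genes, with a median span of 47.1 kb against 17.1 kb for the others, and a longer span has more room for a region. Per length, the members held 4.61 shared regions per Mb of span (95% Poisson interval 2.52 to 7.74, counting error only) and the other genes 2.63, which lies within that interval, near its lower end. The interval takes regions as independent, although 3 members held more than 1, so it does not measure the spread between genes. The 5 transcription factors held 7 of the 14 regions, or 13.4 per Mb, and the other 36 members held 2.79 per Mb. The 7 splicing genes, with only 0.172 Mb of span in all, held 3 regions, or 17.5 per Mb. The 34 members outside splicing held 3.84 per Mb. Among genes of up to 20 kb, 2 of 7 members (Ddx41 and Gata2) had a shared region inside, against 3.10% of other genes. Between 20 and 50 kb it was 3 of 14 members (Sf3b1, Wt1 and Smc3) against 8.60%. Between 50 and 100 kb the order turned, with 1 of 11 members (Luc7l2, 9.09%) against 15.8%. Above 100 kb it was 4 of 9 members (Etv6, Runx1, Kdm6a and Setbp1, 44.4%) against 36.1%. The part of gene length in the overall shares was not tested further.

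**Figure D2:**
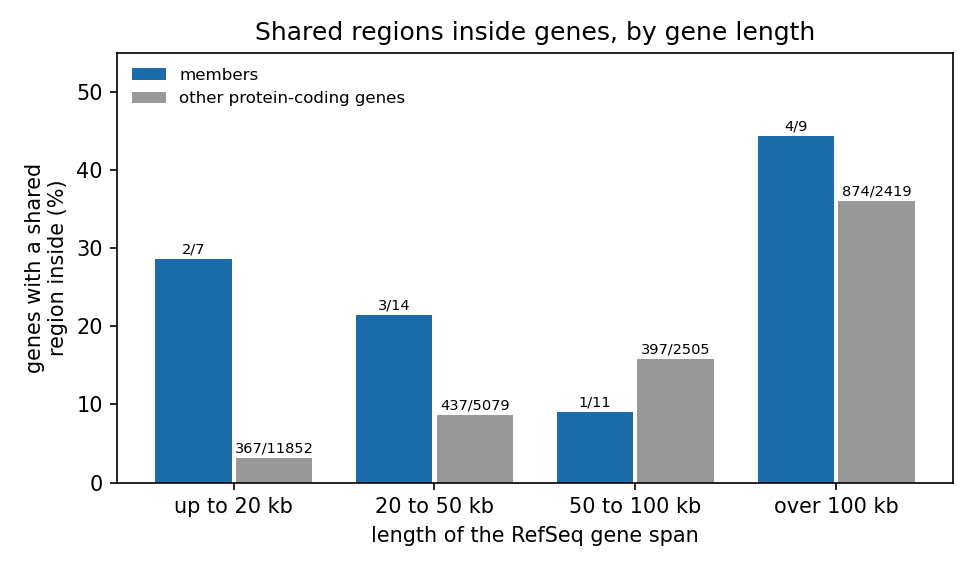
Percent of genes with a shared region inside (y axis) in 4 bands of gene length (x axis), for members and all other protein-coding genes, with counts on the bars. Members stand above the other genes in 3 bands and below them between 50 and 100 kb, where 1 of 11 members and 397 of 2505 other genes had a shared region.

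The counts fell with a limit on the q value, the false discovery rate that MACS2 gives each peak. When only peaks of q of at most 0.05 were kept, 2916 regions were shared, and 5 members (12.2%) had one inside, against 6.22% of other genes. These were Ddx41, Kdm6a, Runx1, Setbp1 and Wt1. Within 3 kb of an end, 2 members (4.88%, Ddx41 and Kdm6a) remained, against 3.59%. When only peaks with a fold of at least 5 in every list were kept, no member had a shared region inside, against 1.19% of other genes.

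The 14 shared regions inside members and the 1 at Csf3r had folds near the middle of all shared regions. The fold is the authors' ratio of ChIP pileup to expected background at the summit, with 1 added to each, and is compared only within a list. Pileup and background, given below for replicates 1 and 3, were solved from the fold and the p-value of a peak. The median fold over these 15 regions was 3.98, 4.18 and 4.14 in replicates 1, 2 and 3, beside 3.94, 4.18 and 4.05 for all shared regions. By mean percentile of fold, the region that ranked highest was number 776 of 5114, in Runx1. Of the 15 regions, 7 had q of at most 0.05 in all 3 lists, 4 in 2 lists, 3 in 1 list and 1, at Csf3r, in none. The summits of the 3 lists lay within 24 to 216 bp of each other, with a median range of 71.0 bp, beside 67.0 bp over all shared regions.

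**Figure D3:**
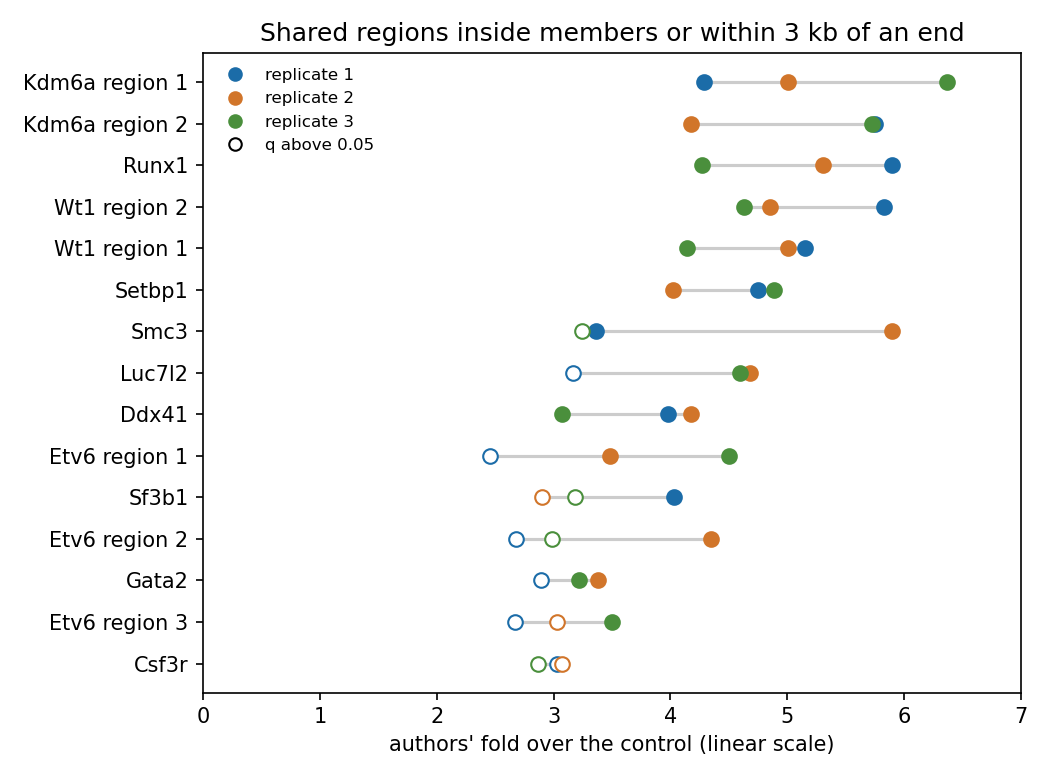
The authors' fold over the control (x axis, linear scale) in each FLAG replicate for the 15 shared regions inside members or within 3 kb of an end (y axis, ordered by mean fold for display only; regions of 1 gene are numbered by rising coordinate). Circles are filled where q was 0.05 or less and open elsewhere; both Kdm6a regions, both Wt1 regions, Runx1, Setbp1 and Ddx41 are filled in every replicate, and Csf3r is open in every replicate.

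The promoters were read from a RefSeq table that gives strand, start sites and sequence, from 250 bases before to 50 after each start, for 35 of the 41 members and 17456 other genes. The members without an entry were Wt1, Npm1, Rad21, Setbp1, Stag2 and Phf6. A peak of some list overlapped the promoter window of 7 of these 35 members, against 6.15% of other genes. They were Ddx41, Etv6, Prpf8, Ezh2, Asxl2, Nras and Tet2. By list, a peak overlapped the window of 5, 1 and 4 of the 35 in replicates 1, 2 and 3, against 4.24%, 2.88% and 3.79% of other genes. Peaks of all 3 lists overlapped it only at Ddx41 among the 35, against 1.67% of other genes. The median GC content of the window was 63.0% at members and 56.3% at other genes. Its part in the result was not tested.

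The core ATTGAT or ATCGAT, on either strand (ATCGAT reads the same on both), stood in the window of 3 of 35 members (8.57%) and of 8.56% of other genes. Of all 21262 promoters 7.34% held it, and the share was higher where more lists had a peak. It was 6.36% of promoters with a peak in no list, 13.9% with a peak in 1 list, 26.5% in 2 lists and 41.4% in 3 lists. The median GC content of these groups was 56.3%, 59.0%, 59.3% and 59.0%. The member promoters with the core were those of Etv6, Prpf8 and the innermost of 3 starts of Fbxw7, and they had a peak in 2, 1 and 0 lists. Their 250 bases before the start are shown 5′ to 3′ on the strand of the gene, with the core in capitals, so that its place can be set beside the peaks. Coordinates are of GRCm38.p6 and positions count from the start, with a minus sign before it.
Etv6 (chr6:134035450-134035699, plus strand): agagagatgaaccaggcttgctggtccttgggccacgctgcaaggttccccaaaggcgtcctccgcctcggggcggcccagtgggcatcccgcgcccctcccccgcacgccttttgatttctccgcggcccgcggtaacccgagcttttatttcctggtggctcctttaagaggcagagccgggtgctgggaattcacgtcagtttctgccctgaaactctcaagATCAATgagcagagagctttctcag
Prpf8 (chr11:75486527-75486776, plus strand): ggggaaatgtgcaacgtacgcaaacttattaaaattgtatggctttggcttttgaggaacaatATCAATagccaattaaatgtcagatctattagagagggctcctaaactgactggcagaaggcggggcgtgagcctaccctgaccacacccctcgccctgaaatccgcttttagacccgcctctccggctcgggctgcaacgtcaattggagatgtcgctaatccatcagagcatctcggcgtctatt
Fbxw7 (chr3:84951961-84952210, plus strand): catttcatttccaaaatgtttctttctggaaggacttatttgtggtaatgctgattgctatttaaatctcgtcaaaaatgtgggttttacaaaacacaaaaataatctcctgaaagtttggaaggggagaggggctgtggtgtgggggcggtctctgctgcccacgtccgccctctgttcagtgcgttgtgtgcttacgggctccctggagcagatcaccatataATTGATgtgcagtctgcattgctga
At Etv6, which encodes a repressor of the ETS family needed by blood stem cells, the core lay at positions -25 to -20. The summit of the replicate 3 peak lay at -29, with a fold of 5.09 (q = 2.42e-05). The replicate 1 peak there had a fold of 2.73 (q = 0.521) and a summit at -104, and replicate 2 had none. At Prpf8, a core subunit of the spliceosome, the core lay at -187 to -182 and the replicate 1 peak had its summit at -117, with a fold of 2.63 (q = 0.0899).

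At Ddx41, which encodes a DEAD-box helicase, the region shared by all 3 lists covered the start site itself and held neither form of the core inside the window. The window ends 50 bases after the start, short of all 3 summits. The sequence under the summits was therefore not searched for the core. The 250 bases before the start are shown because this is the member promoter with peaks in every list; capitals mark the 56 bases inside the shared region.
Ddx41 (chr13:55536659-55536908, minus strand): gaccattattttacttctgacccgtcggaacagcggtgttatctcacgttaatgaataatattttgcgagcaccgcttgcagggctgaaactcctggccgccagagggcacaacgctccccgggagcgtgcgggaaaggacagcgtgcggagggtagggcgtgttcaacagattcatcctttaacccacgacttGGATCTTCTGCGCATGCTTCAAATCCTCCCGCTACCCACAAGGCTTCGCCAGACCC
The folds were 3.98 (q = 1.24e-04), 4.18 (q = 2.01e-05) and 3.07 (q = 0.0473) in replicates 1, 2 and 3. All 3 summits lay after the start, by 117, 103 and 79 bases. The region also lay within 3 kb of an end of Fam193b, and the window overlaps the noncoding locus Gm46416, so the region cannot be given to Ddx41 alone.

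Among the transcription factors, 4 of 5 had a shared region inside the gene, against 6 of the 36 other members and 9.49% of all other genes. When only peaks of q of at most 0.05 were kept, 2 of 5 had one, Runx1 and Wt1. Etv6 and Runx1 are over 100 kb long, a length at which 36.1% of other genes had a shared region inside. Etv6 spans 234 kb on chromosome 6, from 134035700 to 134270158, and its span held 15 regions, of which 3 were shared. The folds of the region from 134112794 to 134113171, 77.2 kb after the start, were 2.46 (q = 0.521), 3.48 (q = 0.00903) and 4.50 (q = 2.80e-05) in replicates 1, 2 and 3. The region from 134208280 to 134208734 had folds of 2.68, 4.35 and 2.99, and only replicate 2 had q of at most 0.05. The region from 134263083 to 134263435 had folds of 2.67, 3.03 and 3.50, with q = 0.0430 in replicate 3 and higher q in the other two. The Etv6 region that stood highest within its list was thus the second in replicate 2 and the first in replicate 3, at percentiles 72.3 and 89.9, and in replicate 1 the percentiles were 15.4, 17.8 and 17.3. The highest Etv6 peak inside the gene, from 134144354 to 134144626, was found in replicate 1 alone, where its fold was 5.82 (q = 3.39e-10). Outside the gene, 35.1 kb before the span, a region from 134000246 to 134000640 had folds of 6.06, 6.40 and 4.78 (q = 3.89e-08, 2.11e-09 and 1.31e-04). It ranked higher than any region inside a member, number 422 of 5114, and 1 other protein-coding gene lay closer to it.

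Runx1, the DNA-binding subunit of core binding factor and a master regulator of definitive blood formation, spans 225 kb on chromosome 16. Of its 9 regions 1 was shared, from 92733456 to 92733874. Its folds were 5.90 (q = 1.31e-08), 5.31 (q = 3.38e-07) and 4.27 (q = 6.56e-04), and the summits fell within 25 bp. In replicate 1 the pileup was 21 fragments against an expected background of 2.73, and in replicate 3 it was 14 against 2.51. The region lay between the starts of Runx1 in the promoter table, 36.3 kb before the inner one. The 8 regions found in 1 list had folds of 2.42 to 3.50. A second shared region, 58.3 kb outside the gene, was weak, with folds of 2.37, 2.51 and 3.10 and q above 0.05 in each list.

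Wt1, a zinc finger factor of kidney, gonad and mesothelium that is mutated in some myeloid neoplasms, is on chromosome 2 and held 2 shared regions within 47.1 kb. The region from 105131204 to 105131752 had folds of 5.15, 5.01 and 4.14 (q = 9.38e-06, 2.01e-05 and 0.00301). The region from 105140842 to 105141545 had folds of 5.83, 4.85 and 4.63 (q = 8.23e-08, 3.26e-05 and 1.82e-04). Both were past q of 0.05 in every list, and 3 more regions inside Wt1 were in replicates 1 and 2 only. Gata2, a zinc finger factor that maintains blood stem cells, had 1 region from 88203752 to 88204181 on chromosome 6, with the summit 3.10 kb from the far end of the gene. Its folds were 2.89 (q = 0.0547), 3.38 (q = 0.0398) and 3.22 (q = 0.0353), at percentiles 35.5, 34.3 and 53.0 of their lists. Cebpa, the factor of granulocyte fate and with 2.64 kb the shortest member, had no peak inside, and its nearest shared region was 151 kb away. On chromosome 7, where it lies with Idh2 and Eed, 3.31% of other genes had a shared region inside, and on chromosome 6, with Etv6 and Gata2, 13.2%.

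**Figure D4:**
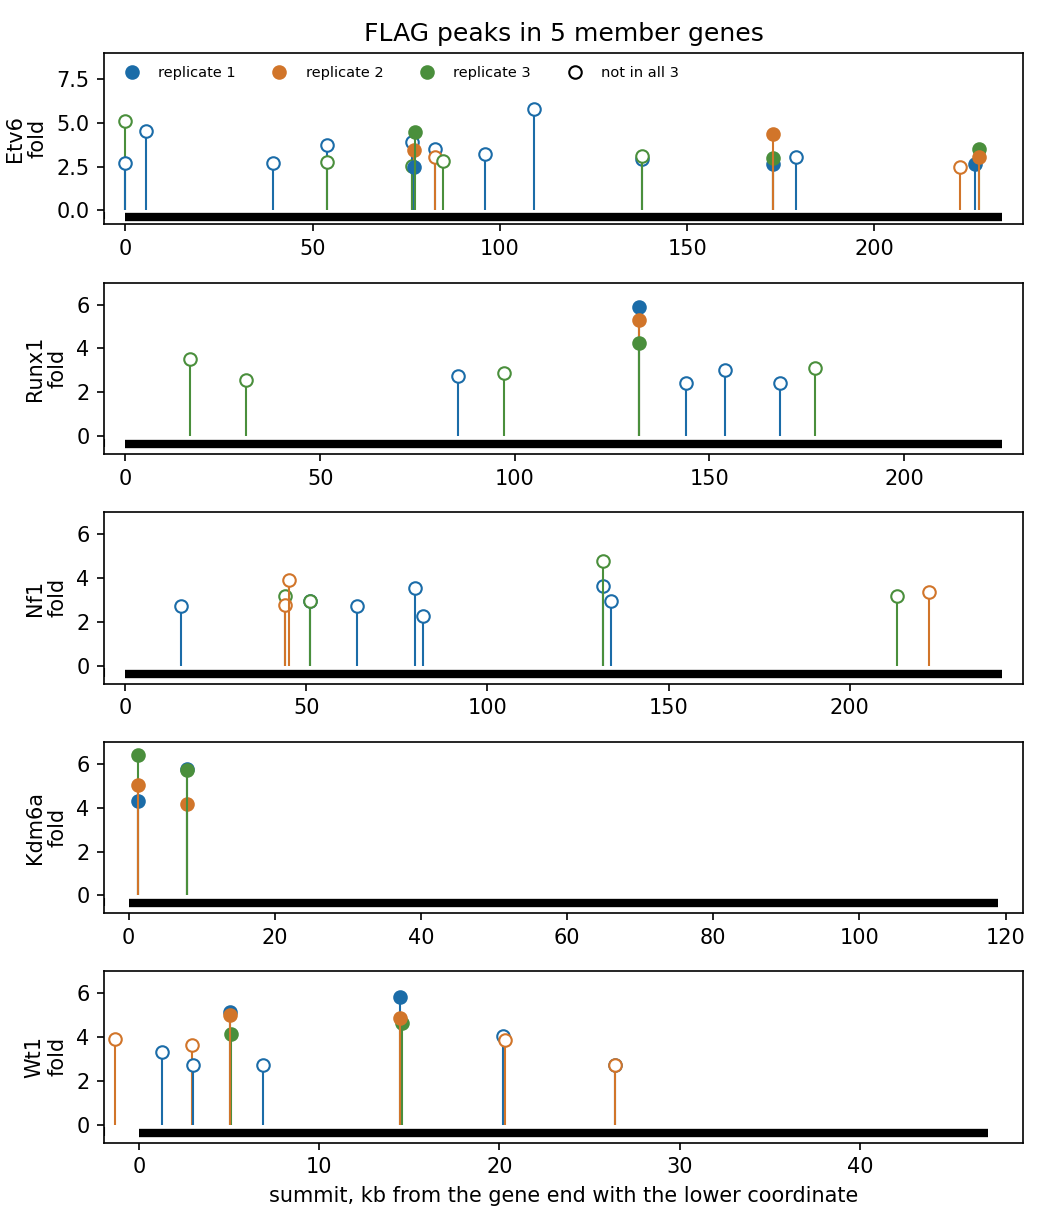
Peaks of the 3 FLAG replicates in Etv6, Runx1, Nf1, Kdm6a and Wt1, plotted by the summit's distance from the lower-coordinate gene end (x axis, kb) and by fold (y axis); the black bar is the gene, filled circles belong to regions found in all 3 replicates and open circles to the rest. Etv6 and Nf1 are of similar length, and the 15 regions of Etv6 include 3 filled ones whereas the 11 of Nf1 include none; in Kdm6a every peak is filled.

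Of the 7 splicing genes, 3 had a shared region inside, each reaching within 3 kb of a gene end. Sf3b1, the branch point subunit of the U2 snRNP and the most often mutated splicing gene of MDS with ring sideroblasts, had a region from 55025285 to 55025996 on chromosome 1, 2.02 kb after its start. The folds were 4.03 (q = 0.00125), 2.90 (q = 0.368) and 3.18 (q = 0.142), so replicate 1 alone passed q of 0.05. Luc7l2, a U1 snRNP-associated protein, had a region from 38552021 to 38552392 on chromosome 6, with folds of 3.17 (q = 0.0548), 4.68 (q = 8.28e-06) and 4.60 (q = 1.10e-05). It lay inside the RefSeq span but before the start in the promoter table, with the summit at -3.46 kb. Ddx41, described above, was the splicing gene whose region passed q of 0.05 in all 3 lists. U2af1 and Srsf2, which recognise the 3′ splice site and exonic enhancers, had no peak inside, and their nearest shared regions lay 45.9 and 77.3 kb away. At U2af1 that region had folds of 3.22, 5.85 and 5.73. At Srsf2 they were 8.63, 8.29 and 11.52, in a region inside St6galnac1 with 5 genes closer to it than Srsf2. Prpf8 and Zrsr2, which helps to read the 3′ splice sites of minor introns, had no shared region within 100 kb, the nearest being 139 and 2704 kb away.

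Of the 10 chromatin genes, Kdm6a alone had a shared region inside, a share of 10.0% against 9.49% of all other genes. It held 2 such regions. Kdm6a encodes the X-linked demethylase UTX, which removes the Polycomb mark from histone H3. The region from 18161885 to 18162312 on chromosome X had its median summit at -0.419 kb from the start in the promoter table. Its folds were 4.29 (q = 3.03e-04), 5.01 (q = 2.01e-05) and 6.37 (q = 1.46e-08), with 15 fragments against 2.73 expected in replicate 1 and 19 against 2.14 in replicate 3. The region from 18168660 to 18169093, 6.29 kb after the start, had folds of 5.75 (q = 2.61e-07), 4.18 (q = 0.00226) and 5.73 (q = 6.75e-07). All 6 peaks were past q of 0.05, and no peak inside Kdm6a lay outside these regions. Chromosome X is poor in shared regions: 1.88% of its other genes, of all lengths, had one inside, and Kdm6a was the 1 of 7 members there that did. Kdm6a spans 119 kb, and over all chromosomes 36.1% of other genes above 100 kb had a shared region inside. Bcor and Bcorl1, corepressors of the PRC1.1 complex, and Phf6 are also on X, with nearest shared regions 229, 84.4 and 1439 kb away. That of Bcorl1 had folds of 3.33, 4.46 and 3.82. The Polycomb repressive complex 2 subunits Ezh2, Eed and Suz12 had none within 100 kb, the nearest being 193, 899 and 151 kb away. Ezh2 had a peak of replicate 1 at its promoter, with a fold of 3.33 (q = 0.0673). Asxl1 and Asxl2, scaffolds of the histone H2A deubiquitinase, had nearest shared regions 374 and 471 kb away, and Asxl2 had a peak of replicate 1 at its promoter, with a fold of 3.63 (q = 0.0201). For Kmt2d, an enhancer histone H3 methyltransferase, the distance was 95.8 kb and the folds were 3.45, 3.04 and 5.18.

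None of the 4 genes of DNA methylation had a shared region inside or within 3 kb of an end. Among all other genes 9.49% had one inside and 5.32% within 3 kb of an end. A class of 4 is too small to tell a count of 0 from those shares. Tet2, which oxidises methylcytosine, had 1 peak inside, of replicate 3, 53 bases after its start, with a fold of 3.82 (q = 0.0116), and its nearest shared region was 209 kb away. Dnmt3a, a de novo DNA methyltransferase of 113 kb, had 1 peak inside, of replicate 1, and its nearest shared region was 67.0 kb away with folds of 3.63, 3.90 and 4.14. Idh1, whose mutant enzyme makes a metabolite that blocks Tet2, had no peak inside, and its nearest shared region, 46.3 kb away, had folds of 4.01, 4.42 and 4.51. For Idh2 the distance was 835 kb.

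Of the 4 cohesin genes, Smc3 had a shared region inside, from 53632027 to 53632342 on chromosome 19, and 3 more within 100 kb. Smc3 is one arm of the cohesin ring. The folds of the region inside were 3.36 (q = 0.0407), 5.90 (q = 1.47e-08) and 3.24 (q = 0.0840), at percentiles 68.0, 94.9 and 53.5 of their lists. Its summits fell within 24 bp, the closest of the 15 regions. Replicates 1 and 3 also had a peak before the gene, with summits at -0.605 and -0.518 kb and folds of 2.50 and 4.16. Chromosome 19 is rich in shared regions, with 19.3% of other genes holding one and 71.8% having one within 100 kb. Rad21, the clasp of the ring, had its nearest shared region 96.7 kb away, just within the 100 kb limit, whereas Nras, the nearest member beyond it, was 111 kb from one. The folds of the Rad21 region, 7.70, 2.49 and 4.84, stood at percentiles 99.7, 3.43 and 93.2 of their lists. Smc1a and Stag2, on chromosome X, had none within 100 kb, the nearest being 171 and 304 kb away.

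None of the 8 signalling genes had a shared region inside, against 9.49% of all other genes. A class of 8 is too small to tell a count of 0 from that share. At Csf3r, the receptor of granulocyte colony stimulating factor, a region from 126046744 to 126047101 on chromosome 4 lay 1.77 kb beyond the gene and inside the neighbouring gene Mrps15. Its folds were 3.03, 3.07 and 2.87, and q was above 0.05 in each list. Nf1, the RAS inhibitor neurofibromin, spans 242 kb and held 11 regions, 8 in 1 list and 3 in 2 lists, and its nearest shared region was 437 kb away. The highest fold there was 4.78 (q = 1.31e-04) in replicate 3, at a region where replicate 1 had 3.63 (q = 0.0201) and replicate 2 no peak. The receptor kinases Kit and Flt3 had no peak inside in any list, and their nearest shared regions were 128 and 2178 kb away. Jak2, the kinase of the erythropoietin and thrombopoietin receptors, Cbl, a ubiquitin ligase that turns off receptors, and Ptpn11, a phosphatase that activates RAS, had one 65.7, 94.0 and 47.0 kb away. The region nearest to Jak2 had folds of 3.24, 4.36 and 3.68, each with q of at most 0.05. Those at Ptpn11, inside Hectd4, were 3.24, 3.67 and 2.53. Those at Cbl were 3.02, 2.13 and 3.45, with q of at most 0.05 in replicate 3 alone. Nras had 1 peak, of replicate 3, with its summit 75 bases before the start and a fold of 3.85 (q = 0.00668).

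Of the 3 other genes, Setbp1, which encodes a SET-binding protein, had a shared region inside. Its folds were 4.75 (q = 1.62e-06), 4.02 (q = 1.27e-05) and 4.89 (q = 6.31e-06), past q of 0.05 in every list. At 360 kb it is the longest of the 41. Npm1, the nucleolar protein nucleophosmin, had 2 peaks of replicate 1 inside, and its nearest shared region, 21.5 kb away inside Fgf18, had folds of 3.43, 4.11 and 3.22. Fbxw7, the substrate receptor of an SCF ubiquitin ligase, spans 164 kb and held 5 regions, each found in 1 list, with its nearest shared region 270 kb away.

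**Figure D5:**
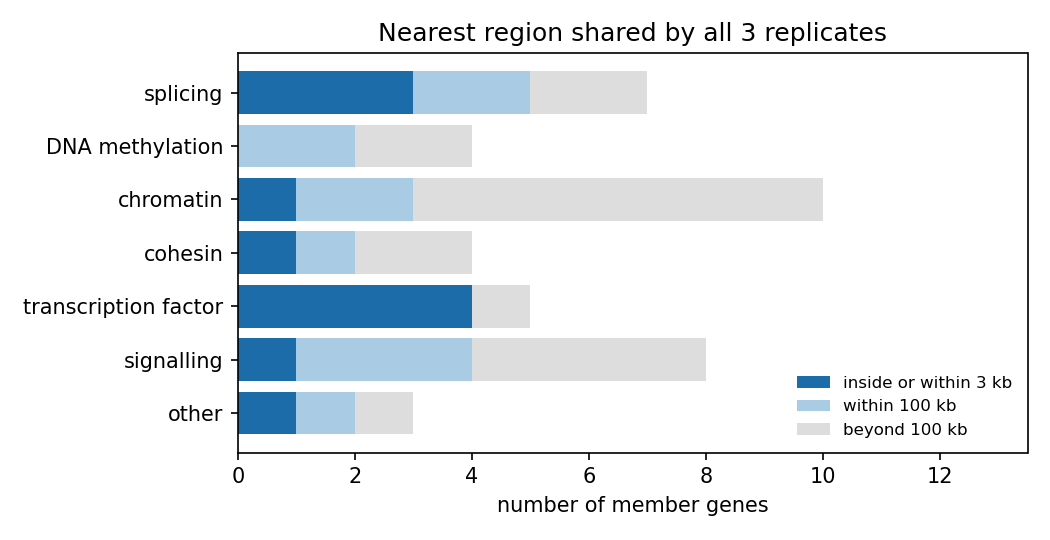
Number of member genes (x axis) in each functional class (y axis) whose nearest shared region lay inside the gene or within 3 kb of an end, within 100 kb, or farther away. The transcription factors have 4 of 5 genes in the nearest group and the chromatin genes 1 of 10, with 7 beyond 100 kb. Inside the gene alone, 10.0% of the chromatin genes had a shared region, against 9.49% of all other genes.

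In all, 39 shared regions lay inside or within 100 kb of a member, among 290 regions of any list. Of these 39, 24 lay outside the gene and beyond 3 kb of its ends. Another protein-coding gene was closer to 22 of those 24 than the member was, and 13 of them lay inside another gene. Of the peaks of replicates 1, 2 and 3 within 100 kb of members, 21.4%, 42.9% and 27.7% were in shared regions, against 16.2%, 40.0% and 20.7% of the other peaks. The mean was 30.6% ± 11.0 near members and 25.7% ± 12.6 elsewhere (SD, n = 3). The share was higher near members in each of the 3 lists. These are not 3 separate comparisons, since the same 39 shared regions are counted in every list.

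The 72 partners and paralogs of the members were read the same way. A shared region lay inside 12 of them (16.7%) and within 3 kb of an end at 12 (16.7%), with 40 (55.6%) having one inside or within 100 kb. The background for these windows is the same 9.49%, 5.32% and 40.7%. The median span of the partners was 24.9 kb. Among 17 splicing partners, 5 had a region at an end, namely Prpf3, Prpf31, Sf3b3, Sf1 and U2af2. U2af2, which pairs with U2af1 at the polypyrimidine tract, had folds of 3.33, 4.18 and 3.50 at 0.133 kb from a gene end. Sf3b3, a partner of Sf3b1 in the SF3b complex, had 2.95, 3.90 and 3.42 in a region that also overlaps Cog4. At Prpf31 the folds of 4.83, 7.79 and 7.41 came from a region inside the neighbouring gene Cnot3. At Prpf3 they were 4.84, 4.46 and 4.14, 0.341 kb before the start. At Sf1, a branch point binding protein, they were 3.67, 4.06 and 3.22.

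Among 14 chromatin partners, Kmt2a, Kmt2c and Kdm2b had a region at an end. Kmt2a, the MLL methyltransferase rearranged in leukaemia, had folds of 4.84 (q = 5.10e-05), 5.29 (q = 3.62e-06) and 7.01 (q = 2.48e-10) at 1.57 kb after its start. Kmt2c, the paralog of Kmt2d, had 5.10, 4.24 and 4.37 in a region outside its span, 0.908 kb from a gene end. Kmt2d had no shared region within 3 kb of an end. Just outside its span, replicates 1 and 2 had a peak, with folds of 3.94 and 4.46, and replicate 3 had none. Kdm2b, which brings Bcor to CpG islands, had 4.83, 2.90 and 4.99. Cbfb, the partner subunit of Runx1 in core binding factor, was the 1 of 12 transcription factor partners with a region at an end, with folds of 3.03, 3.62 and 4.46. It also had a region deeper inside, with folds of 3.63, 4.18 and 2.23. Of these 12 partners, 2 (16.7%) had a shared region inside, against 9.49% of other genes. Inside or within 100 kb, 3 (25.0%) had one, against 40.7%. At Ptpn6, a phosphatase of blood cells among the 13 signalling partners, the folds were 3.07, 2.90 and 2.53, in a region that overlaps Grcc10. Uhrf1, which guides maintenance DNA methylation, had 2.63, 2.21 and 4.56 in a region inside Kdm4b. No cohesin partner had a region at an end, and 4 of 9 had one deeper inside, namely Ctcf, Nipbl, Pds5a and Esco1.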

How the data were processed

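ChIP-Seq was performed on p53 KO MEFs, and the peak lists of 3 ONECUT3-OE FLAG replicates were used. The build GRCm38 and the tools MACS2 2.1.0, Bowtie2 2.2.6 and deepTools 3.3.2 are listed, without roles, in the processing notes of the submitters. The names of the peaks carry 1 replicate and the word input each. How reads were filtered is not given in the sources used here. For each peak the authors deposited the summit, a score, the fold as a ratio, and both the q-value and the p-value as -log10. Fold and q-value depend on depth, which is unknown, so lists were set side by side by the percentile of a fold within its list. Mean folds only set the order of regions in a plot.

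Peaks were merged at an overlap of at least 1 bp. Genes were RefSeq protein-coding spans of GRCm38.p6, and promoters, strand and start sites came from the RefSeq promoter table of the same build. Lists of genes were described by counts beside all other protein-coding genes, with no test. The members, classes and partners were chosen with earlier results of these data known. Every member with a shared region inside, within 3 kb of an end or within 100 kb is named, as is every partner with one at an end, except 1 that is not reported here. Members beyond 100 kb, cohesin partners and genes with peaks in fewer lists were also named after their values were seen. Pileup and background were solved for from the fold and the p-value. Of 3160, 1286 and 2483 peaks tried, taken at even steps from lists 1, 2 and 3, 100%, 0.0778% and 100% gave a whole-number pileup within 0.001, so they are given for replicates 1 and 3 only. The search for shared regions and the pileup step were tested on simulated data. Alternatives were other peak limits, other overlaps, other windows and leaving out each replicate. Scripts ran in Python 3.11.15 with matplotlib 3.10.9, scipy 1.17.1, pandas 2.3.3 and numpy 2.4.6.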

Additional observations from a re-analysis of the deposited data

How the results depend on the processing

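Of 66 values under an alternative, 43 stayed close to the main value (gene counts within 1.5 times, percentages within 1 SD over the lists, the density within its 95% Poisson interval of 2.52 to 7.74 per Mb) and 23 moved. Only peaks of -log10 q at least 5 left 0 members with a shared region inside, 0 at a gene end and 2 within 100 kb, against 1.22%, 0.865% and 7.30% of other genes. The density was 0 regions per Mb, against 0.264 in other genes, with 0 classes and 1 partner having a region inside. Per list, 8.13% of members had a peak inside, and 18.5% of member peaks were in shared regions. Under the alternatives these 2 kinds of share were not computed for other genes or other peaks. They therefore do not show whether members changed more or less than the rest. A fold of at least 5 gave 0, 0 and 1 members, against 1.19%, 0.819% and 7.02% of other genes. The density was 0 per Mb against 0.257, and the other values were 0 classes, 1 partner, 8.13% and 9.09%. With q of at most 0.05 there were 5 members inside and 2 at an end, against 6.22% and 3.59% of other genes, and 7 of 72 partners with a region inside. The density was then 2.31 regions per Mb, against 1.56 in other genes, and 29.3% of members had a peak inside per list. A window of 1 kb left 2 of 41 members at an end, against 3.29% of other genes. With 1 replicate left out, the share of member peaks in shared regions was 37.1% to 48.4% where it had been 30.6%, since fewer lists have to share a region. The density without replicate 2 was 7.25 per Mb, against 4.67 in other genes. Another overlap rule or only autosomes and X moved no count by over 1.5 times. No paired analysis was possible because only 1 group of samples has peak lists; members and other genes were set side by side within each list. The depth behind the lists is unknown, so a gene without a peak cannot be called unbound.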

Other observations

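Of the 39 shared regions inside or within 100 kb of members, the 2 ranked highest by fold lay inside other genes. The region 77.3 kb from Srsf2, inside St6galnac1, which encodes a sialyltransferase, spans 116771934 to 116772611 on chromosome 11 and was number 25 of the 5114 shared regions. Its pileup was 33 fragments against an expected 2.94 in replicate 1 and 42 against 2.73 in replicate 3. The next, number 408, lay 67.0 kb from Smc3 inside Dusp5, which encodes a phosphatase of ERK, with folds of 4.30, 6.76 and 10.92 in replicates 1, 2 and 3. A region 21.2 kb from Smc3, to which no protein-coding gene was closer, was number 507 and had folds of 4.73, 5.69 and 5.91, each with q below 0.05.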
